A study of Mus musculus with 6 samples.

Results

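The Id genes encode inhibitors of basic helix-loop-helix (bHLH) transcription factors, and Hes1 encodes a bHLH repressor. They were followed in the uterus of mice given estradiol, the principal estrogen made by the ovary. The members are all probe sets that the annotation of the array pairs with Id1, Id2, Id3, Id4 or Hes1 and with no other symbol. This gave 5 of the 12422 probe sets used, 1 for each of the 5 genes, out of 8251 genes named. Each gene is therefore read by 1 probe set only, and no second probe set of this kind was there to compare. The 396 probe sets paired with several symbols were not searched for members.

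The study profiled whole uteri of C57Bl/6 female mice, stated to be 10 to 11 weeks old, on Affymetrix U74Av2 arrays. All groups, vehicle included, had been ovariectomised 7 days before sacrifice, which takes away most circulating estrogen. The groups were vehicle, with sacrifice 24 h after injection, and a dose of 0.05 µg of estradiol per mouse, with sacrifice 1, 3, 6, 12 or 24 h later. Injections were given under the skin, the uteri were pooled before RNA extraction, and each group has 1 array. The labels give 10 mice, with no word on how they were divided, and they also say that animals arrived at 10 weeks and acclimated for 3 weeks. With 1 array per group there is no spread between replicates, so nothing below was tested. Each difference describes a pair of arrays, and its precision is limited by how few arrays there are. The vehicle group is matched for time since injection with the 24 h estradiol array alone. At the earlier times estradiol and the act of injecting cannot be told apart.

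Id proteins have a helix-loop-helix dimerisation domain but lack the basic region that contacts DNA. They pair with E proteins, the widely expressed bHLH factors, and keep them from binding DNA with their tissue-restricted partners. Id genes are known for high expression in undifferentiated and dividing cells and as direct targets of bone morphogenetic protein (BMP) signalling through Smad proteins. Hes1, unlike the Id proteins, binds DNA and represses its targets, among them its own gene, and is a classical target of Notch signalling.

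The array labelled 3 h stood apart from the other 5 and went against its tissue label, so its values are given separately at the end. Its rank correlation with the other arrays was 0.843 to 0.857 across probe sets, against 0.929 to 0.968 over the 10 pairs of the others. Of 7 markers of uterine identity on the array, 1 reached the detection floor there, whereas 6 or 7 did so on each of the other arrays. The floor was 142.8 signal units, the 40th percentile of all values. All 5 members lay above it on all 6 arrays, so none of their folds is a bound. Signals are given on the linear scale after scaling of the arrays to a common trimmed mean, and only values of the same probe set are compared.

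Id2 and Id3 were the members furthest below vehicle at 6 and 24 h, whereas at 12 h Id3 was followed by Id4 and Hes1. Both Id2 and Id3 were near their vehicle level at 1 h and had their lowest signal at 6 h, when Id2 was 2.97-fold and Id3 3.34-fold lower. By 12 h Id2 stood closer to vehicle again, while Id3 stayed more than 2.5-fold lower through 24 h. Id4 was lower to a smaller degree than either at 6 and 24 h but further below vehicle than Id2 at 12 h, and Id1 stayed within 1.22-fold of vehicle at 1, 6, 12 and 24 h.

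Id3 had a signal of 1948 in vehicle, then 1747, 583, 762 and 695 at 1, 6, 12 and 24 h. The vehicle and 1 h arrays were the high ones, and the 3 later arrays lay close together below them. Its log2 ratio of estradiol over vehicle was -0.16, -1.74, -1.35 and -1.49 at 1, 6, 12 and 24 h. In fold terms Id3 was 3.34-fold lower at 6 h, 2.56-fold lower at 12 h and 2.80-fold lower at 24 h. Among all probe sets tested, the share with a lower ratio than Id3 was 1.49%, 3.29% and 0.848% at 6, 12 and 24 h. At 24 h, the only time with a matched vehicle, this left 68 of 8018 probe sets below it. Id3 acts with Id1 in the growth of blood vessels and is also known from lymphocytes.

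Id2 had a signal of 3076 in vehicle, then 2861, 1036, 1870 and 1556 at 1, 6, 12 and 24 h. The 6 h array was the lowest of these, and the 12 h and 24 h arrays lay between it and vehicle. Its log2 ratio was -0.10, -1.57, -0.72 and -0.98 at 1, 6, 12 and 24 h. Id2 was thus 2.97-fold lower at 6 h, 1.65-fold lower at 12 h and 1.98-fold lower at 24 h, the last just under the 2-fold minimum used for counts. From 6 h to 12 h its signal differed by 1.81-fold upward, and 97.1% of the 7718 probe sets tested between these arrays had a lower ratio. The same step for Id3 was 1.31-fold upward, with 83.7% of probe sets below it. Id2 is known for roles in natural killer and innate lymphoid cells and in epithelial cells of several organs.

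**Figure D1:**
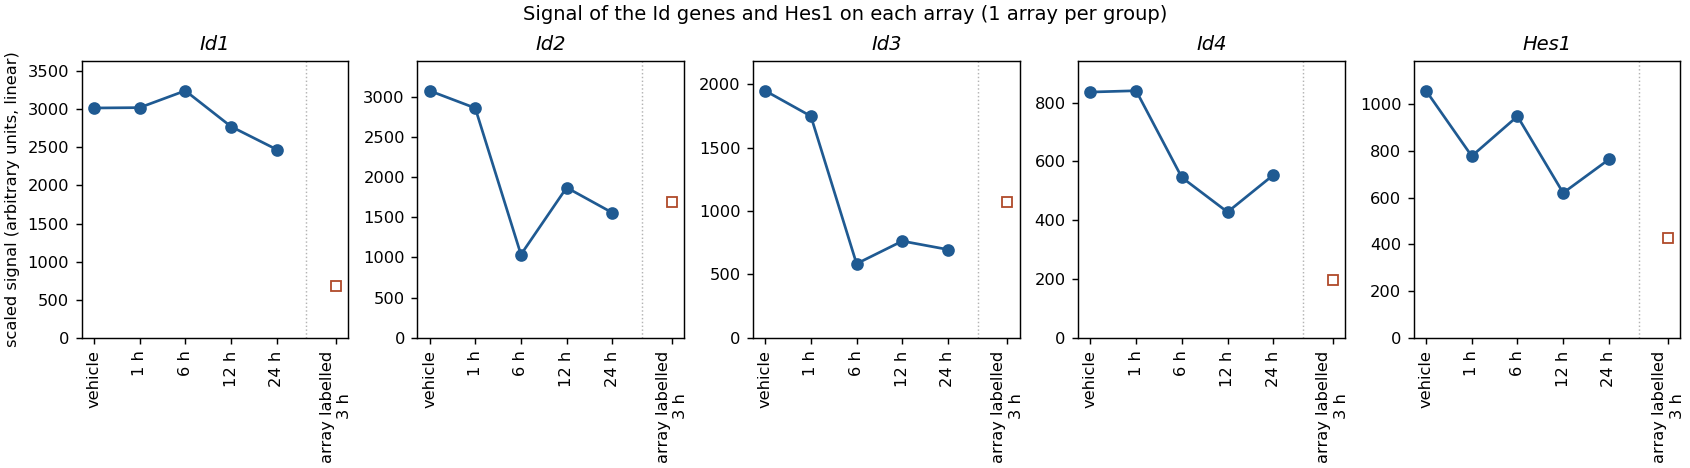
Scaled signal (linear, arbitrary units) of Id1, Id2, Id3, Id4 and Hes1 on each array, with 1 point per array and evenly spaced positions that are not to scale in time. Filled points joined by a line are vehicle and 1, 6, 12 and 24 h after estradiol, and the open square is the array labelled 3 h. Id2 and Id3 were lowest at 6 h (1036 and 583), and Id1 stayed between 2473 and 3245 on the 5 joined arrays.

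The promoters of Id2 and Id3 are shown because these genes had the lowest ratios at 6 h and shared their lowest time. Each sequence holds the 250 bases before the annotated start, from RefSeq on build GRCm38.p6, 5′ to 3′ on the strand of the gene. That of Id2 is chr12:25096093-25096342 on the minus strand and that of Id3 is chr4:136143572-136143821 on the plus strand. Capitals mark E-boxes (CANNTG), the GGCGCC element bound by Smad proteins of the BMP branch, and CCAAT boxes, read on either strand.
Id2: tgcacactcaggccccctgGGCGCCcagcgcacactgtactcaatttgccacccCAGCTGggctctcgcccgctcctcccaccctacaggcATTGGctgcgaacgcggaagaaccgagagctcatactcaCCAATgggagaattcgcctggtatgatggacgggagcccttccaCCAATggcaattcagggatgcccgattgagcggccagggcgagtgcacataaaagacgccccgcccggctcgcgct
Id3: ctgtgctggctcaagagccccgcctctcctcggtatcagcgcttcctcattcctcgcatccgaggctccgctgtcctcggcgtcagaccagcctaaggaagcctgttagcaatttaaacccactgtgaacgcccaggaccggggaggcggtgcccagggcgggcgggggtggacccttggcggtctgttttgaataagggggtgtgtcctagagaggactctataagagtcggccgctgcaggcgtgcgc

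The RefSeq promoter table matched 3 of the 5 members, Id2, Id3 and Id4. In Id2 the letters of 1 E-box, 1 GGCGCC element and 3 CCAAT boxes were found, none overlapping another. In Id3 none of these were found, although both windows had a GC content of 62.8%, against a median of 52.4% over 32851 promoters. In Id4, at chr13:48260866-48261115 on the plus strand, the GC content was 75.6%, with 1 GGCGCC element and 2 CCAAT boxes. Over all promoters of this length, 66.2% held an E-box, 9.59% a GGCGCC element and 33.8% a CCAAT box. Also searched on both strands were the Hes N-box CACNAG (36.7% of promoters), the RBPJ core GTGGGAA (5.42%) and the Egr site GCGGGGGCG (2.57%). The remaining searches were for TATAAA (12.4%), the full palindromic estrogen response element, which is GGTCA, NNN and TGACC in a row (0.0639%), and its half-site GGTCA (35.2%), which makes 9 motifs in all. Of these 6 further motifs, Id4 held 1 N-box and 1 GGTCA half-site, and Id2 and Id3 held none. A match describes letters in this window and is not evidence of binding.

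Id4 had a signal of 836 in vehicle, then 840, 545, 427 and 553 at 1, 6, 12 and 24 h. Its lowest array was 12 h, 6 h later than for Id2 and Id3. The log2 ratio was 0.01, -0.62, -0.97 and -0.59 at 1, 6, 12 and 24 h, so that the 12 h value was 1.95-fold lower and just short of 2-fold. At 12 h, 7.76% of probe sets had a lower ratio, and at 24 h 12.8%. Id4 is known for roles in the nervous system, the testis and the mammary gland.

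Id1 had a signal of 3018 in vehicle, then 3023, 3245, 2775 and 2473 at 1, 6, 12 and 24 h. These 5 arrays spanned 1.31-fold from lowest to highest, against 3.34-fold for Id3, 2.97-fold for Id2, 1.97-fold for Id4 and 1.71-fold for Hes1. The log2 ratio of Id1 was 0.00, 0.10, -0.12 and -0.29 at 1, 6, 12 and 24 h. At 6 h, when Id2 and Id3 were lowest, 60.2% of probe sets had a lower ratio than Id1. Its rank within the array, which no linear scaling can change, was between the 95.2 and 96.7 percentile on all 5 arrays. Id3 by the same measure stood at the 73.1 percentile at 6 h, 78.3 at 12 h and 76.8 at 24 h, against 93.2 in vehicle. Id1 is the family member most often used as a readout of BMP signalling.

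Hes1 had a signal of 1059 in vehicle, then 778, 949, 621 and 764 at 1, 6, 12 and 24 h. The values alternated rather than moving one way, with 1 h and 12 h below their neighbours in time. The log2 ratio was -0.44, -0.16, -0.77 and -0.47 at 1, 6, 12 and 24 h. At 1 h it was 1.36-fold lower, and 7.40% of probe sets had a lower ratio, whereas the 4 Id genes differed from vehicle by at most 1.11-fold. At 12 h it was 1.71-fold lower, with 12.1% of probe sets below it. The small negative ratio at 6 h was not stable in sign, being 0.06 against the averaged vehicle and 1 h arrays.

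In counts, no member was 2-fold higher than vehicle on any array. At 1 h no member was 2-fold lower, beside 0.552% of all probe sets lower and 1.08% higher. At 6 h Id2 and Id3 were 2-fold lower, 2 of 5, beside 8.39% of all probe sets, and 6.68% were higher. At 12 h Id3 alone was, 1 of 5, beside 7.25% lower and 6.69% higher. At 24 h it was again Id3 alone, beside 3.75% lower and 3.49% higher. A count of 1 of 5 is a single gene, so it is not read as a result about the group. With a 1.5-fold minimum, added after the values were seen, 3 of 5 members were lower at 6 h (all probe sets 19.3%), 4 of 5 at 12 h (18.1%), 3 of 5 at 24 h (13.1%) and 5 of 5 on the array labelled 3 h (27.3%). The ratios of all 5 members lay below 0 at 12 h and at 24 h, when 52.8% and 52.0% of all probe sets did. The median log2 ratio of the members was -0.10, -0.62, -0.77 and -0.59 at 1, 6, 12 and 24 h, beside 0.00, -0.05, -0.04 and -0.02 over all probe sets.

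**Figure D2:**
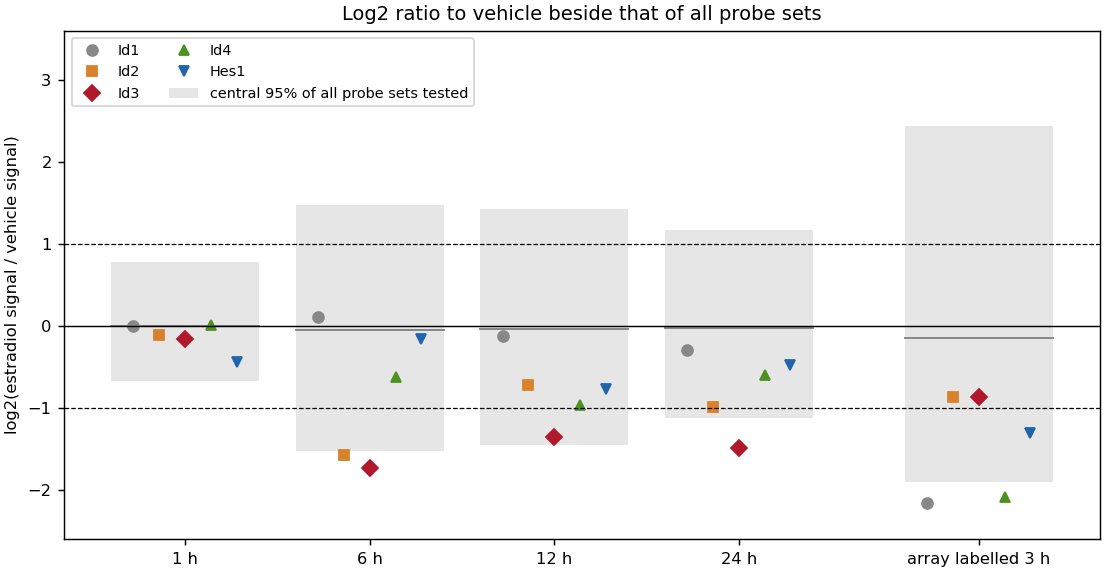
Log2 ratio of estradiol over vehicle for each member (coloured points) at 1, 6, 12 and 24 h and, at the right, on the array labelled 3 h. Grey boxes span the central 95% of all probe sets tested with their median as a line, and dashed lines mark 2-fold. Id3 lies below the grey box at 6 h (-1.74) and at 24 h (-1.49), and Id2 just below it at 6 h (-1.57).

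The central 95% of all probe sets ran from -1.52 to 1.48 at 6 h, from -1.46 to 1.43 at 12 h and from -1.13 to 1.17 at 24 h. Id3 at 6 h and 24 h and Id2 at 6 h lay below these ranges, and all other member ratios at 1, 6, 12 and 24 h lay within the range of their time. By the root mean square difference of their ratios over these 4 times, Id4 and Hes1 were closest to each other (0.34 log2 units). Id2 and Id3 differed by 0.41, Id1 and Hes1 by 0.42, and Id1 and Id3 were furthest apart at 1.26.

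The genes with profiles most like those of Id2 and Id3 were taken from 4780 genes by the same measure. Nearest to Id2 were Reck, a membrane-anchored inhibitor of matrix metalloproteinases (0.14), the angiomotin gene Amot (0.14) and the sodium-calcium exchanger gene Slc8a1 (0.14). The other probe sets of Slc8a1 lay below the floor on all 6 arrays. Reck had a signal of 1103 in vehicle, then 978, 431, 652 and 623 at 1, 6, 12 and 24 h, also lowest at 6 h. Nearest to Id3 were the galectin gene Lgals4 (0.11), the cell adhesion gene Cadm1 (0.16) and Hfe (0.16), a regulator of iron uptake. Cadm1 had a signal of 2635 in vehicle, then 2079, 934, 1088 and 936 at 1, 6, 12 and 24 h. A second measured probe set of Cadm1 stood at a log2 ratio of -0.53 at 6 h and 0.09 at 24 h, so that gene's likeness holds for its brightest probe set. Hfe lay below the floor at 6 h. These likenesses rest on 4 ratios that share the vehicle array.

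The E proteins, direct partners of Id proteins, showed no common difference. On a list of Id partners, 8 or 9 genes were measured at each time. None was 2-fold higher or lower at 6, 12 or 24 h, and the median log2 ratio was 0.07, 0.05 and 0.00. This list also holds partners that are not E proteins, and some lay near or below the floor. The 12 h median was the ratio of Rb1, which lay below the floor in vehicle. The 24 h median came in part from Pax5, which lay below the floor at 24 h. Among the E protein genes, Tcf3 stood at 0.09, Tcf4 at -0.82 and Tcf12 at -0.26 at 24 h. Over all genes 9.1% were lower and 6.91% higher at 6 h, 7.55% and 6.71% at 12 h, and 3.82% and 3.69% at 24 h. The E protein gene Tcf3 had a signal of 381 at 6 h against 370 in vehicle, and Tcf12 had 2012 against 1487. Tcf4, the third E protein gene, had a signal of 1792 in vehicle, then 1659, 1547, 1125 and 1018 at 1, 6, 12 and 24 h, and was 1.76-fold lower at 24 h. On this list Pax8, a paired box factor, was 2.24-fold higher at 1 h, when 0.928% of genes were higher and 0.381% lower.

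Of the tissue-restricted and other bHLH genes, 1 of 13 measured was higher at 1 h and none lower, beside 0.928% and 0.381% of all genes. This was Hand1, a bHLH factor of heart and trophoblast, with a signal of 466 against 190 in vehicle, 2.46-fold higher. At 6 h 2 of 12 measured were higher and 2 lower, beside 6.91% and 9.1% of all genes. Hand1 was 2.91-fold higher at 6 h, with a signal of 552. Its second probe set lay below the floor on all 6 arrays. Twist2, a stromal factor, was 2.22-fold higher at 6 h, with 4887 against 2201, and back near vehicle at 12 h with 2069. Scx, a factor of tendon and connective tissue, was 2.30-fold lower at 12 h, and Msc (musculin) at least 2.58-fold lower. At 12 h these were the 2 of 12 genes lower, with none higher, beside 7.55% and 6.71% of all genes. At 24 h none of 13 was 2-fold away, beside 3.82% lower and 3.69% higher of all genes. The median of this list was -0.28, -0.15 and -0.19 at 6, 12 and 24 h, beside -0.05, -0.04 and -0.04 over all genes. The 24 h median was the ratio of Mesp2, and the 6 h and 12 h medians came in part from Mesp2. Its ratios are bounds, because Mesp2 lay below the floor at 6, 12 and 24 h.

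Genes of the BMP pathway, which acts upstream of the Id genes, had medians below 0 from 6 h on. The median log2 ratio was -0.01, -0.36, -0.44 and -0.38 at 1, 6, 12 and 24 h, beside -0.01, -0.05, -0.04 and -0.04 over all genes. Of 20 genes measured at each of the 3 later times, 16, 16 and 15 had a ratio below 0, beside 53.7%, 53.0% and 53.2% of all genes. At 2-fold, 2, 2 and 1 were lower and none was higher. Over all genes 9.1%, 7.55% and 3.82% were lower and 6.91%, 6.71% and 3.69% higher. The receptor gene Acvr2b, for a type II receptor of activins and BMPs, was 3.12-fold lower at 6 h, with a signal of 327 against 1021 in vehicle, and 2.93-fold lower at 12 h. Nbl1, a secreted BMP antagonist, was 2.80-fold lower at 24 h, with 1756 against 4916, and 2.62-fold lower at 12 h. Twsg1, a secreted modulator of BMP ligands, was 2.06-fold lower at 6 h. Among genes of this list under 2-fold, the ligand gene Bmp4 stood at -0.97 at 6 h and -0.68 at 24 h. The signal transducer genes Smad1 and Smad4 stood at -0.72 and -0.56 at 12 h. Smad6, an inhibitory Smad and itself a BMP target, stood at -0.67 at 6 h and -0.42 at 24 h. The other inhibitory Smad gene, Smad7, stood at 0.66, 0.36, 0.20 and -0.64 at 1, 6, 12 and 24 h. Above vehicle at 6 h were also Eng (endoglin), a co-receptor of the pathway, at 0.78, with a signal of 4073 against 2368. The ligand gene Bmp7 stood at 0.26 and the antagonist gene Nog at 0.24 at 6 h. The list holds ligands and receptors together with antagonists and inhibitory Smads, so its median gives no direction of BMP signalling.

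Genes of the Notch pathway, upstream of Hes1, had a median of -0.28, -0.26 and -0.27 at 6, 12 and 24 h. Over all genes the median was -0.05, -0.04 and -0.04. The 24 h median of the list was the ratio of Rbpjl, which is a bound because Rbpjl lay below the floor at 24 h. Of 18 measured at 6 h, 1 was higher and 2 lower, beside 6.91% and 9.1% of all genes. None of 19 was 2-fold away at 12 h or 24 h, beside 6.71% higher and 7.55% lower, and 3.69% and 3.82%, of all genes. Dtx1 (deltex), a regulator of Notch, was 2.54-fold lower at 6 h, with a signal of 256 against 649 in vehicle. The Groucho-type corepressor genes, whose products are recruited by Hes1, moved in opposite directions. Tle3 was 2.18-fold higher at 6 h, with 2725 against 1247, and Tle1 2.05-fold lower, with 403 against 827. Rbpj, the DNA-binding factor of the pathway, stood at -0.88 at 12 h. Hey1, a relative of Hes1 and also a Notch target, had a signal of 551 in vehicle, then 544, 453, 345 and 388 at 1, 6, 12 and 24 h. Of these its 12 h signal was the lowest. Rbpj and Hey1 were chosen after their values were seen. At 12 h 14 of 19 genes on the list had a ratio below 0, beside 53.0% of all genes. The receptor genes Notch1 and Notch3 stood at 0.315 and 0.302 then, and Notch2 at -0.744. Dtx1 and Tle1 had lower ratios at 6 h than at 12 h. A link between these genes and Hes1 was not tested.

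**Figure D3:**
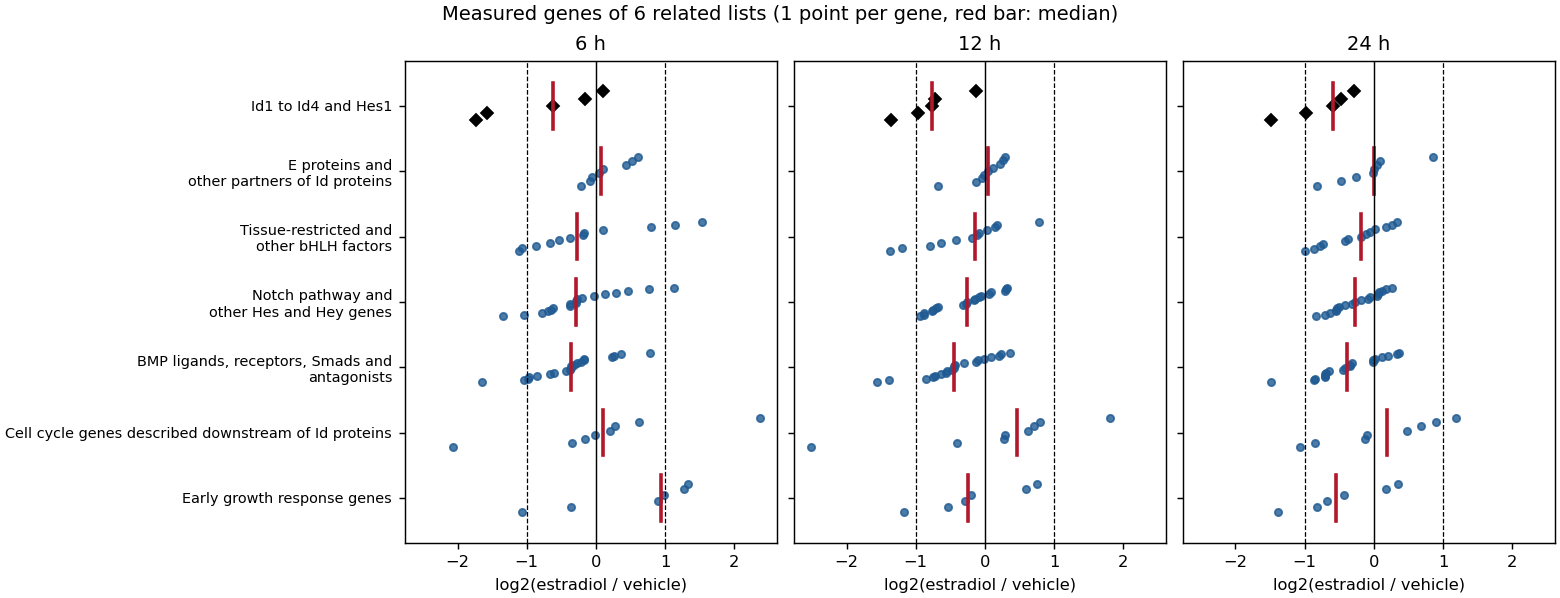
Log2 ratio of estradiol over vehicle at 6, 12 and 24 h for the 5 members (black diamonds, top row) and the measured genes of 6 related lists (blue points, 1 per gene). Red bars are medians and dashed lines mark 2-fold. The BMP list has its median at -0.36, -0.44 and -0.38 at the 3 times, while that of the Id partners lies at 0.07, 0.05 and 0.00.

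Cell cycle genes described as downstream of Id proteins, through E proteins or otherwise, went in both directions. At 6, 12 and 24 h, 1 of 8 measured was higher and 1 lower. Over all genes 6.91%, 6.71% and 3.69% were higher and 9.1%, 7.55% and 3.82% lower at these times. Cdkn1c, an inhibitor of cyclin-dependent kinases, was 4.20-fold lower at 6 h, 5.73-fold lower at 12 h and 2.09-fold lower at 24 h. Cdkn1a, another such inhibitor and a target of E proteins, was 5.17-fold higher at 6 h by its brightest probe set, but the other had a log2 ratio of -0.11. The cyclin A gene Ccna2 was 2.27-fold higher at 24 h, with a signal of 1128 against 497 in vehicle. Cdkn2a, whose product p16 is a known target of repression by Id1, was above the floor on the 1 h array only, so no ratio is given for later times.

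Early growth response genes, some of which regulate Id genes in other cells, were led by Fos at 1 h, when none of the Id genes was far from vehicle. Of 6 measured, 2 were higher at 1 h, Fos at 4.82-fold and Myc at 2.0-fold, and none lower. Over all genes 0.928% were higher and 0.381% lower at 1 h. The list did not go 1 way then, as 2 of the 6 had a ratio below 0, Junb at -0.78 and Egr2 at -0.08. Myc lay right at the 2-fold minimum, and the second probe set of Fos lay below the floor on all 6 arrays. At 6 h Egr2 was 2.53-fold and Fos 2.42-fold higher, and Jun 2.09-fold lower, beside 6.91% of all genes higher and 9.1% lower. Jun remained 2.62-fold lower at 24 h, the 1 gene of 6 that was 2-fold away, beside 3.82% of all genes lower and 3.69% higher. Egr1 had a signal of 1381 at 1 h and 1551 at 6 h against 832 in vehicle, log2 ratios of 0.73 and 0.90.

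In a whole organ, fewer cells of a type and less RNA per cell cannot be told apart. The summed signal of 12 stromal fibroblast markers was 53.3%, 79.9% and 136% of vehicle at 6, 12 and 24 h, with 11 of 12 at or above the floor at 6 h, 12 h and in vehicle, and all 12 at 24 h. The collagen genes Col1a1, Col1a2 and Col3a1 carried this sum at 24 h, with log2 ratios of 1.49, 1.59 and 1.14, while the median of the list was -0.03. Without these 3 genes, left out after their values were seen, the other 9 summed to 40.4%, 37.0% and 71.4% of vehicle at 6, 12 and 24 h. Most of this sum was Dcn (decorin), with a signal of 23991 out of 42843 in vehicle, then 9206, 5963 and 13656 at 6, 12 and 24 h. At 24 h Lum was 1.39-fold and Fn1 1.06-fold higher than vehicle. Vim was also higher then, but lay below the floor in vehicle, and the rest of the 9 were lower. Id3 was 29.9%, 39.1% and 35.7% of vehicle at these times. Summed endothelial markers (14 genes) were 79.9%, 76.1% and 73.3% of vehicle at 6, 12 and 24 h, with 12 to 14 of them above the floor on these arrays and vehicle. Among the endothelial genes 4 of 14 were 2-fold lower at both 6 and 12 h, and 3 at 24 h, beside 9.1%, 7.55% and 3.82% of all genes. This was not particular to endothelium. Among the stromal genes 5 of 11 were 2-fold lower at 6 h and 3 of 11 at 12 h, with none higher. At 24 h 1 of 12 stromal genes was lower and 3 were higher, when 3.69% of all genes were higher. Summed markers of macrophages and leukocytes (11 genes) were 70.0%, 70.6% and 85.2% of vehicle at 6, 12 and 24 h, with 6 to 8 above the floor. Their ranges over vehicle and 1, 6, 12 and 24 h were 9845 to 13422 signal units for endothelium and 5694 to 8499 for leukocytes. Smooth muscle (9 genes) stood at 102%, 120% and 143% of vehicle at 6, 12 and 24 h, and uterine epithelium (13 genes) at 95.8%, 98.1% and 128%. The part of these shifts in the Id2, Id3 and Id4 values was not tested.

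**Figure D4:**
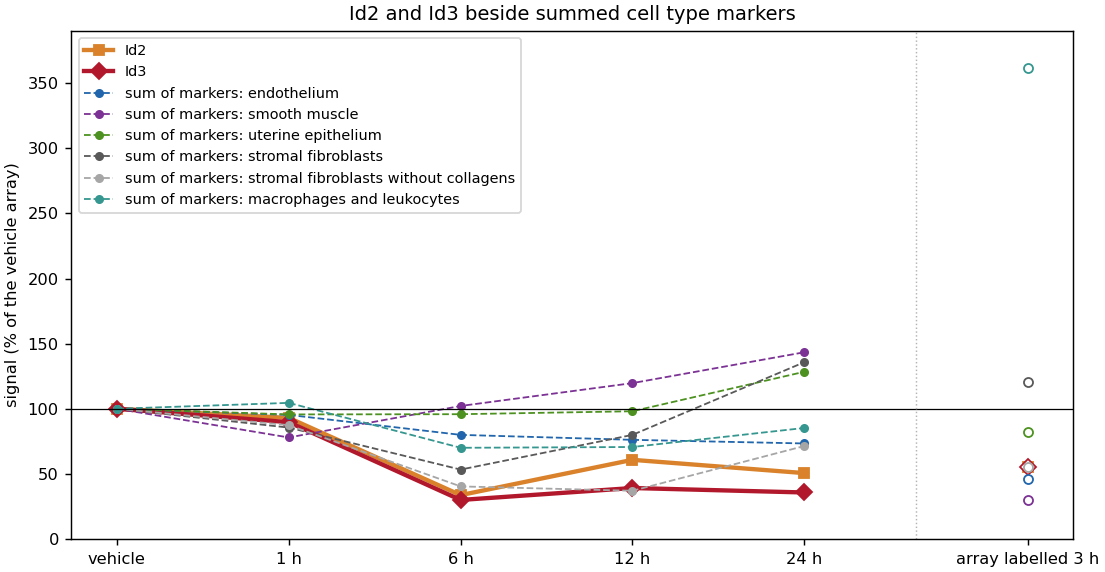
Signal as a percentage of the vehicle array for Id2 and Id3 (thick lines) and for summed markers of 5 cell types and of stromal fibroblasts without Col1a1, Col1a2 and Col3a1 (dashed lines), at evenly spaced positions not to scale in time, with open symbols for the array labelled 3 h. Id3 stays at 29.9% to 39.1% of vehicle from 6 h to 24 h. The stromal sum is at 53.3%, 79.9% and 136% at 6, 12 and 24 h with the 3 collagen genes and at 40.4%, 37.0% and 71.4% without them.

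A set of 5 pancreatic acinar genes, which are markers of another organ, summed to 50.8%, 25.5%, 44.9% and 45.3% of vehicle at 1, 6, 12 and 24 h, and to 31.3% on the array labelled 3 h. The vehicle array, which all ratios share, was thus the highest of the 6. At 1, 6, 12 and 24 h 3 of the 5 reached the floor, against all 5 in vehicle. Their part in the member values was not tested.

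On the array labelled 3 h the members had a different order of ratios. Id1 had a signal of 676 there against 3018 in vehicle, 4.46-fold lower, and Id4 had 197 against 836, 4.24-fold lower. Hes1 had 429 against 1059, 2.47-fold lower. Id2 had 1689 against 3076 and Id3 1072 against 1948, both 1.82-fold lower. Thus 3 of 5 members were 2-fold lower, beside 12.9% of all probe sets lower and 11.8% higher, and the genes concerned were those that were not 2-fold lower on any other array. Id1 stood at the 75.7 percentile of this array.

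On the same array the uterine identity genes Hoxa10, Hoxa11, Hoxd10, Esr1, Pgr and Pax2 lay below the floor (Pax2 also in vehicle), and Msx1 had 279 against 2561 in vehicle. The summed uterine identity markers were 6.84% of vehicle, smooth muscle markers 29.8% and endothelial markers 46.1%. Markers of macrophages and leukocytes summed to 362% of vehicle, with all 11 above the floor against 8 in vehicle. Among the bHLH genes Twist2 and Tcf21 lay below the floor there, and Lyl1, a blood cell factor, was 5.98-fold higher than vehicle. These values are those of an array whose markers differ from uterus, and a response at 3 h cannot be told apart from that difference.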

How the data were processed

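Gene expression was measured on 6 arrays, 1 for each group, from pooled RNA labelled from 20 µg. The deposited values are MAS5 signal intensity per probe set on a linear scale, per the submitters' processing notes, and the authors had scaled the arrays alike, since the 2% trimmed means were 500.2 to 500.3. The MAS5 version and background settings are not given in the sources used here.

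After leaving out 66 control probe sets, arrays were rescaled to 1 trimmed mean, values under the 40th percentile were raised to it, and log2 was taken. A probe set was counted as tested where either array of the pair reached the floor. Of 12422 probe sets, 10833 had 1 gene symbol, 396 several and 1193 none. Symbols were updated through the RefSeq gene table of GRCm38.p6 for 10817. Lists used the brightest probe set of a gene. Several genes given with values had more than 1 probe set, and only the brightest is given for them. Among these are Bmp4, Smad1, Egr1, Notch1, Notch2, Col1a1, Col1a2 and Col3a1. Named were all members, up to 4 genes per related list at 2-fold with a brighter array at or above the 60th percentile (352.7), and the 3 genes most like each member at 2-fold at 1, 6, 12 or 24 h. Other genes given with values, such as Tcf4, Bmp4 and Hey1, were chosen after their values were seen. Members and lists were chosen with earlier results of these data known. Alternatives were 9 planned and 3 added. The counting was tested on simulated data. Python 3.11.15, numpy 2.4.6 and pandas 2.3.3 were used.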

Additional observations from a re-analysis of the deposited data

How the results depend on the processing

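The log2 ratios of the 5 members kept their side of the 2-fold minimum under all alternatives run, 215 values in all, and none at 2-fold changed sign. Many of these values could hardly have differed. All member signals but that of Id4 on the array labelled 3 h lay above the highest floor tried, 352.7, so changing the floor level could not move the other ratios. The deposited values were already scaled alike, so using them unscaled could barely move a ratio. Id3 ranged from -1.74 to -1.64 at 6 h, from -1.37 to -1.28 at 12 h and from -1.49 to -1.41 at 24 h, and Id2 from -1.61 to -1.47 at 6 h and from -1.0 to -0.93 at 24 h. Ratios near 0 changed sign, among them Id1 at 1 h (-0.05 to 0.09), Id4 at 1 h (-0.05 to 0.01) and Hes1 at 6 h (-0.16 to 0.06). With a 1.5-fold minimum, 5 members were lower on the array labelled 3 h in place of 3, 4 at 12 h in place of 1 and 3 at 24 h in place of 1. Counts over the 6 related lists depended more on the settings. With the floor at the 20th percentile, 8 list genes were higher and 5 lower at 1 h (4 and 0 in the settings used), 2 and 11 at 12 h (1 and 6), and 4 and 11 at 24 h (1 and 3). With the 60th percentile, 5 were higher on the array labelled 3 h (8) and 1 at 1 h. Without a floor, after adding 50, 3 were lower at 1 h, 5 at 6 h (8) and 9 at 24 h, and 2 were higher at 12 h and 2 at 24 h. With median scaling 4 were lower at 6 h. With the mean of vehicle and 1 h as reference, 5 were higher on the array labelled 3 h and 3 at 6 h (6). With the median of all probe sets, 5 were higher on the array labelled 3 h and 0 at 12 h (1). The summed stromal markers without Col1a1, Col1a2 and Col3a1 were 55.3% of vehicle on the array labelled 3 h (121%) and 71.4% at 24 h (136%), both across the vehicle level.

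Over all probe sets, the alternatives gave 32 to 452 higher and 9 to 258 lower at 1 h (86 and 44 in the settings used). They gave 352 to 845 and 365 to 1121 at 6 h (530 and 666), 332 to 853 and 334 to 973 at 12 h (531 and 576), and 168 to 668 and 167 to 629 at 24 h (280 and 301). For the array labelled 3 h these were 620 to 1356 and 608 to 1666 (966 and 1054). Median scaling moved the median of all probe sets by 0.12 on the array labelled 3 h, and made 640 higher and 533 lower at 6 h. The causes were not tested. No paired analysis was possible because each group has 1 array. No array could be left out as a replicate for the same reason.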
